A study of Homo sapiens with 24 samples.

Results

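Histone marks were examined at the promoters of 41 genes of Wnt signalling in PANC-1 cells: 19 Wnt ligands, 10 Frizzled receptors, 4 secreted Frizzled-related proteins (SFRP), 4 Dickkopf proteins (DKK), the co-receptors LRP5 and LRP6, and AXIN2 and LGR5. They were chosen by name, as the ligands, receptors and secreted antagonists of the pathway together with a pair of its common target genes, from 19821 protein-coding genes. PANC-1 is a line from a human pancreatic ductal carcinoma. The study depleted PHF13, a reader of H3K4 methylation, by siRNA (siPHF13) and set this beside a control siRNA (siControl), in cells that received TGFβ (10 ng/ml, 48 h) to drive them towards a mesenchymal state. There were thus 3 groups, siControl without TGFβ, siControl+TGFb and siPHF13+TGFb, with 2 ChIP-seq libraries for each of H3K4me3, H3K27ac and H3K27me3, and every cell, the controls included, had been transfected. All libraries came from a single line, nothing in the labels says that replicates were separate cultures, and neither siPHF13 without TGFβ nor RNA was analysed here, so the depletion itself was not checked.

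Wnt ligands are secreted, lipid-modified proteins that bind a Frizzled receptor and LRP5 or LRP6 on the receiving cell. SFRPs bind the ligand, DKKs bind the co-receptor, and both dampen the signal. When the signal passes, β-catenin reaches the nucleus and AXIN2, which rebuilds the destruction complex of β-catenin, is induced as negative feedback. H3K4me3 lies at promoters, H3K27ac at promoters and enhancers in use, and H3K27me3 is laid down by Polycomb repressive complex 2. A promoter that carries H3K4me3 together with H3K27me3 is called bivalent, a state known from developmental genes, among them many Wnt genes.

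Each deposited list holds the peaks called in 1 library. A promoter window was 5 kb on each side of every transcription start site (TSS) of a gene's protein-coding transcripts, merged, 10001 bp for a gene with a single TSS, and its value in a library was the number of base pairs (bp) under peaks. A mark was counted as present in a group if it covered at least 1 bp of the window in both libraries. Promoters with H3K4me3 and H3K27me3 were counted as bivalent, those with H3K4me3 and H3K27ac but without H3K27me3 as active, those with H3K4me3 alone as H3K4me3 only, and those with H3K27me3 without H3K4me3 as Polycomb-only. Both marks of a bivalent promoter were measured in populations of cells, so that a mixture of cells with either mark cannot be told apart from both marks in the same cell, nor fewer marked cells from less of a mark in each cell.

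The libraries differed in length before any gene was considered. The siPHF13+TGFb replicate 1 list was the shortest of the 6 for every mark, with 27869 H3K4me3 peaks against 30770 to 39202 in the others, 59573 H3K27me3 peaks against 98211 to 165717, and 6004 H3K27ac peaks against 19413 to 36104. State counts, medians, counts of non-overlapping groups and some log2 changes for siPHF13+TGFb are therefore also given without this library. This alternative was chosen after seeing the data. Read numbers are not in the lists, so the depth is unknown. Inside the 6 lists labelled siPHF13+TGFb the peaks bear the name NCT, the study's short form of control siRNA plus TGFβ, and those in the 6 labelled siControl+TGFb bear the name 3AT. Groups were taken from the labels. If the 2 groups were exchanged, the directions given for depletion would turn, and the comparisons given for TGFβ would set siPHF13+TGFb against siControl. Of the markers of epithelial cells, H3K4me3 covered KRT8, KRT18, KRT19, EPCAM, CDH1 and SOX9 in all 6 lists, while KRT7 had it in 1 list and CDH1 had H3K27ac in none. Of 6 mesenchymal markers, VIM, CDH2, FN1, ZEB1 and SNAI2 had H3K4me3 in all 6 lists and TWIST1 in 5. H3K27ac was in all 6 lists at VIM and ZEB1, in 5 at CDH2, in 2 at SNAI2 and in none at FN1 and TWIST1. H3K27me3 lay at EPCAM, FN1 and SNAI2 in all 6 lists and at CDH1 in 5, and at none of the other epithelial and mesenchymal markers. No H3K27ac peak lay at any of 5 endocrine, 5 immune or 3 endothelial markers, and of 5 acinar markers CELA3A alone had it, in 5 lists. H3K4me3, however, was in all 6 lists at 2 of the endocrine, 2 of the immune and 1 of the endothelial markers.

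The promoters that stand at the ends of the range are shown first, as the bases upstream of the canonical TSS with CpG dinucleotides in capitals, read 5′ to 3′ on the strand of the gene from GRCh37, whose chromosomes are those of hg19. LRP5 had, after WNT7B, the most H3K27ac of the 41 genes when its 2 windows were summed. The window around its second start held 0 to 1267 bp of this. WNT7A and WNT1 had the longest stretches under both H3K4me3 and H3K27me3. WNT8B and WNT8A had H3K27me3 and no H3K4me3 peak in any list.
LRP5 (chr11:68079809-68080058, plus strand): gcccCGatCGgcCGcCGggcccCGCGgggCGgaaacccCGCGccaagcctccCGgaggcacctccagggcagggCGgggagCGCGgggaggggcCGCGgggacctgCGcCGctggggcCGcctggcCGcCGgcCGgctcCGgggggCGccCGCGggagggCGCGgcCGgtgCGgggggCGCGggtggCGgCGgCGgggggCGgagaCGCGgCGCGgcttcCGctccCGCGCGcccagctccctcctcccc
WNT7A (chr3:13921569-13921818, minus strand): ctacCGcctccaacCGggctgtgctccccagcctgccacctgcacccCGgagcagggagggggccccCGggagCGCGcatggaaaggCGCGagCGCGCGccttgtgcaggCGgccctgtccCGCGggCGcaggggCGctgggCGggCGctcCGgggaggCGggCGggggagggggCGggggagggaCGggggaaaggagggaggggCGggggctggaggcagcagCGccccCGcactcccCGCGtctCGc
WNT1 (chr12:49371855-49372104, plus strand): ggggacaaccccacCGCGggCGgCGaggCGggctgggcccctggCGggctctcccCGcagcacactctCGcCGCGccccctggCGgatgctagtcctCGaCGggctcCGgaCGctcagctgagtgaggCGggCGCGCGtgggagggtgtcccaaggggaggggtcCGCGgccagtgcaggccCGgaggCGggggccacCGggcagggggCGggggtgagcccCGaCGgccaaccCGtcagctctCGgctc
WNT8B (chr10:102222516-102222765, plus strand): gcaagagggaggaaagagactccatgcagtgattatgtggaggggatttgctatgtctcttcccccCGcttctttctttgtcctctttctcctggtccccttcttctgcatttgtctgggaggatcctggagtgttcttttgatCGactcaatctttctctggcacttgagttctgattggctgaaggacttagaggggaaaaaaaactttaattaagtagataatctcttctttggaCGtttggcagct
WNT8A (chr5:137419472-137419678, plus strand): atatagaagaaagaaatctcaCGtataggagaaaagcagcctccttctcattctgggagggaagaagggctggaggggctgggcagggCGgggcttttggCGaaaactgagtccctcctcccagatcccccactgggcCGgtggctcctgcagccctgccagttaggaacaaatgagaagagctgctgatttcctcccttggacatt
The stretch of 250 bp held 43 CpGs at LRP5, 29 at WNT7A and 29 at WNT1, but 3 at WNT8B. At WNT8A, where 43 bp of an annotated exon were left out, the remaining 207 bp held 4. H3K27me3 peaks touched the printed stretch of WNT1 in 6 lists and those of WNT7A and WNT8B in 5, and H3K4me3 touched that of WNT7A in 6. H3K4me3 touched the printed stretch of WNT1 in 1 list, and H3K27me3 that of WNT8A in none, as their peaks lay elsewhere in the window. At LRP5, H3K4me3 touched the printed stretch in 5 lists and H3K27ac in none.

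In siControl cells, 21 of the 41 promoters were bivalent (51.2%), against 20.4% of all protein-coding genes. The active state held 7 (17.1%, against 43.4% of all genes), H3K4me3 alone 7 (17.1%, against 10.1%) and the Polycomb-only state 4 (9.76%, against 11.3%), which leaves FZD10 and DKK4. These shares are descriptions and were not tested. The set divided by role: 14 of the 19 ligands were bivalent, while both co-receptors were active. Of the 64 other Wnt pathway genes listed for comparison, from the destruction complex, the TCF/LEF factors, the R-spondins and the planar polarity branch, 46.9% were bivalent and 34.4% active.

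**Figure D1:**
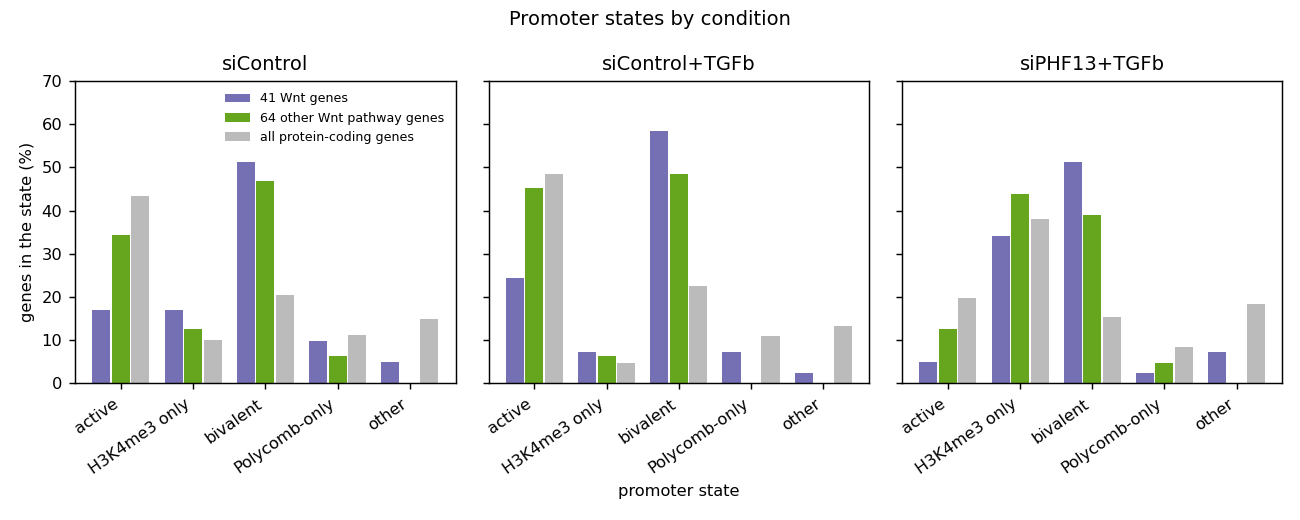
Share of genes (y axis, %) in each promoter state (x axis) in siControl, siControl+TGFb and siPHF13+TGFb, for the 41 Wnt genes, 64 other Wnt pathway genes and all protein-coding genes. The bivalent share of the 41 genes stands between 51.2% and 58.5% in the 3 conditions, and that of all genes between 15.4% and 22.6%.

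The bivalent ligands were WNT1, WNT2, WNT2B, WNT3, WNT3A, WNT4, WNT5A, WNT6, WNT7A, WNT9B, WNT10A, WNT10B, WNT11 and WNT16. By the rule on whole windows all 14 were bivalent in each of the 3 conditions, although the marks of WNT3 in siPHF13+TGFb lay at separate starts and did not overlap in either library. FZD1, a Frizzled receptor, the antagonists SFRP4 and SFRP5, and LGR5, the R-spondin receptor that marks intestinal stem cells, were also bivalent throughout, which makes 18 of the 41 (43.9%, against 14.1% of all genes). Without siPHF13+TGFb replicate 1 the number was 20, with FZD8 and AXIN2, against 18.1% of all genes. At WNT2B, WNT4, WNT5A, WNT10A and FZD1, also counted among the 18, the 2 marks shared 0 bp in at least 1 library. WNT1 had the most H3K27me3: siControl gave 7532 and 10001 bp, siControl+TGFb 9564 and 10001 bp, and siPHF13+TGFb 7948 and 10001 bp. Its whole window lay under the mark in replicate 2 of each group. WNT11, a ligand of the β-catenin-independent branch, was next with a mean of 8086.2 bp over the 6 lists, then WNT3A, a classical β-catenin ligand, with 7910.5 bp. This order is by length, and the window of WNT11 was longer, 14235 bp against 10001 bp. As a share of the window, H3K27me3 covered 40.6 to 74.1% at WNT11 and 44.1 to 100% at WNT3A. At the lower end of the bivalent ligands, WNT2B had 424 to 2951 bp.

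H3K27me3 in the bivalent members was long and H3K4me3 short, although H3K27me3 alone was called as broad peaks, so the 2 lengths are not alike in kind. In siControl replicate 1 the 21 promoters had a median of 3746 bp of H3K27me3 and 1310 bp of H3K4me3, and in replicate 2 a median of 7586 and 1714 bp. All bivalent genes had a median of 2247 and 5231 bp of H3K27me3 in the same lists, and of 1500 and 1628 bp of H3K4me3. The strongest H3K27me3 peak of a bivalent member stood at a median percentile of 87.1 and 97.0 of its list by q-value, and that of all bivalent genes at 82.3 and 93.1. For H3K4me3 the order was the reverse, 51.6 and 61.1 for the members and 64.9 and 71.4 for all bivalent genes. These are descriptions over genes of the same lists.

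**Figure D2:**
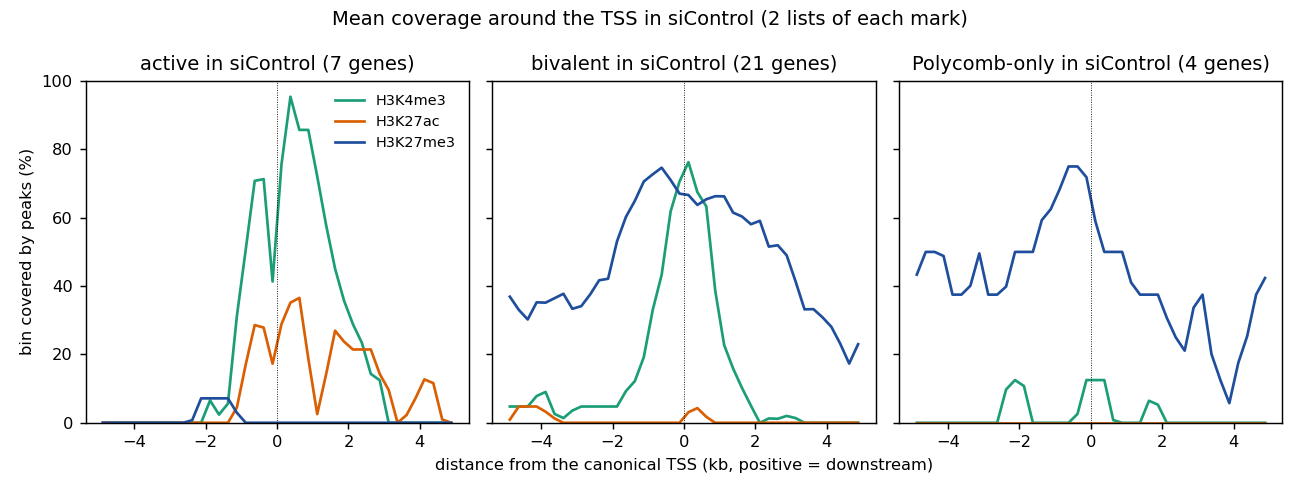
Mean percentage of 250 bp bins under peaks of H3K4me3, H3K27ac and H3K27me3 (y axis) by distance from the canonical TSS in kb (x axis), over both siControl lists, for the 7 active, 21 bivalent and 4 Polycomb-only genes. H3K4me3 of the bivalent genes reached 76.2% just downstream of the TSS inside a wider H3K27me3 domain, which still covered 36.9% of the outermost upstream bin.

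Around the TSS of the bivalent genes the 2 marks had different shapes. H3K4me3 covered 76.2% of the bin from the TSS to 250 bp downstream, 19.2% of the bin centred 1125 bp upstream and 22.8% of that centred 1125 bp downstream. H3K27me3 covered 66.7% at the first of these, 70.6% at the second and 66.2% at the third. Where the 2 marks overlapped, the overlap was longest at WNT7A, a ligand of the female reproductive tract and limb, at 1009 and 2218 bp for siControl, 2474 and 2171 bp for siControl+TGFb, and 463 and 1791 bp for siPHF13+TGFb. At WNT1 and LGR5 the mean overlap was 1352.3 and 1349.5 bp. Peaks of the 2 marks shared at least 1 bp in both siControl libraries at 17 of the 21 bivalent promoters.

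Wnt genes lie in pairs on several chromosomes, and some shared a Polycomb domain. The TSSs of WNT1 and WNT10B lie 6587 bp apart on chromosome 12, head to head. H3K27me3 covered 62.5 and 100% of the stretch between them in siControl, 100% in both siControl+TGFb libraries, and 57.6 and 100% in siPHF13+TGFb. A single peak reached over both TSSs in 4 lists, those of replicate 2 in each group and of siControl+TGFb replicate 1, and was 25930 bp long in siControl replicate 2. Their windows share 3414 bp and those of WNT3 and WNT9B 9884 bp, with the same H3K27me3 counted in both, so the genes of either pair are not independent values. Between WNT6 and WNT10A, 21046 bp apart, H3K27me3 covered 12.5 to 66.2%. WNT3A and WNT9A, 59066 bp apart, differed in state: WNT3A was bivalent and WNT9A active, with H3K27me3 over 8.76 to 25.8% of the stretch between.

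WNT3 and WNT2B carried different marks at their several starts. At WNT3, the window on chromosome 17 from 44843813 to 44854653, around 2 alternative starts, had H3K4me3 of 1816 to 2039 bp in all 6 lists and H3K27ac in 5, with H3K27me3 in 1. The window around the canonical start, from 44891058 to 44901058, had H3K27me3 of 624 to 5795 bp and no H3K27ac in any list. WNT2B on chromosome 1 divided likewise: the window from 113004163 to 113015056 had H3K4me3 with no H3K27me3 in any list, while that from 113046587 to 113056587 had both. SFRP4 counted as bivalent with H3K27ac of 916, 1157, 1162, 1177 and 1438 bp in 5 lists, but all those peaks lay upstream of its TSS and near the TSS of another gene. That gene, EPDR1, has its TSS 3823 bp from that of SFRP4, and a second H3K4me3 peak was found there in all 6 lists. At its own TSS SFRP4 had H3K4me3 and no H3K27ac. The windows of WNT3 and WNT9B hold a TSS of each other, and those of FZD3 and LGR5 hold the TSS of another gene, FBXO16 at 3934 bp and TSPAN8 at 2100 bp.

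The active members were WNT7B and WNT9A among the ligands, FZD2 and FZD7 among the receptors, the antagonist DKK1, and LRP5 and LRP6. WNT7B, a ligand of epithelia, carried H3K27ac over 1474 and 2634 bp (siControl), 3848 and 2205 bp (siControl+TGFb), and 0 and 3853 bp (siPHF13+TGFb). LRP5 had 1454 and 2346 bp, 2784 and 2302 bp, and 436 and 3838 bp in the same order, summed over its 2 windows. The window with its canonical TSS held 1454 and 2039 bp, 2138 and 1707 bp, and 436 and 2571 bp of these. DKK1, the founding Dickkopf antagonist, had 746 and 2348 bp, 3327 and 1874 bp, and 0 and 3720 bp. In all 3 genes siPHF13+TGFb gave both the lowest value and the highest, so that its libraries lay on either side of all others. FZD7 had 795 and 1101 bp, 1690 and 1012 bp, and 0 and 1745 bp. LRP5 and LRP6 were the only members with H3K27ac in all 6 lists, and neither had H3K27me3 in any.

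**Figure D3:**
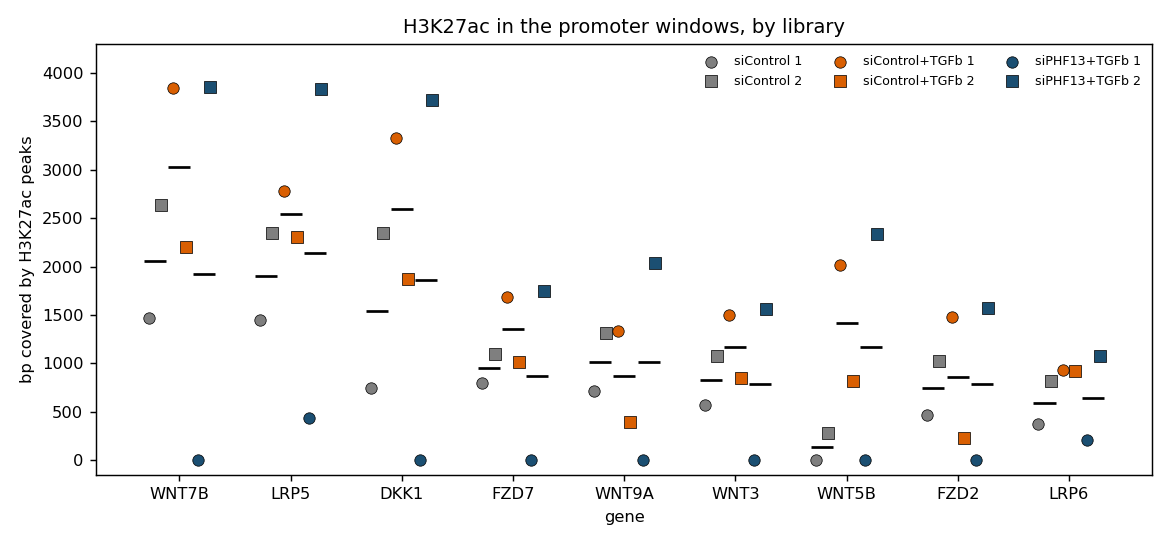
Base pairs of the promoter window covered by H3K27ac peaks (y axis) at 9 Wnt genes (x axis), 1 point per library, with the group by colour, replicate 1 as circles and replicate 2 as squares, and a bar at the mean of each group of 2. Replicate 1 of siPHF13+TGFb is at 0 bp for 7 of the 9 genes (436 bp at LRP5 and 210 bp at LRP6), while replicate 2 is the highest point in all 9.

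The H3K27ac lay at different distances from the TSS. At LRP6 a peak straddled the canonical TSS in every list but siPHF13+TGFb replicate 1, from 485 bp upstream to 331 bp downstream in siControl replicate 2. In siPHF13+TGFb replicate 1 the peak ran from 225 to 16 bp upstream. At LRP5 the main peak began 1638 bp downstream of the TSS in siControl replicate 1 and 1206 bp downstream in replicate 2, and ended at 3091 and 3244 bp. At DKK1 a peak near 4 kb downstream was present in 5 lists, from 3671 to 4405 bp in siControl replicate 2. The fold enrichment of the strongest H3K27ac peak had a median of 4.18 and 4.15 over the active members in the siControl lists, against 5.58 and 6.83 over all active genes. Its percentile in the list had a median of 59.6 and 66.3, against 68.7 and 77.5 for all active genes.

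The receptors were marked unlike the ligands in H3K27me3 and in the share of genes with any H3K27ac, while the presence of H3K4me3 was alike. H3K4me3 covered 9 of the 10 Frizzled genes in all 6 lists, with FZD10 the exception, and 17 of the 19 ligands. H3K27ac was found in at least 1 list at 8 of the 10 Frizzled genes and at 7 of the 19 ligands. Of all genes, 35.4% had it in no list and 20.9% in all 6. No Frizzled gene and no ligand had it in all 6 lists, and 2 of each were active in siControl. At FZD4 and FZD8 it lay only in siControl+TGFb replicate 1 and siPHF13+TGFb replicate 2. The mean H3K27me3 over the 6 lists had a median of 382.8 bp over the Frizzled genes and 4689.0 bp over the ligands. FZD1, at 1729 to 6610 bp, was the single Frizzled gene with H3K27me3 in all 6 lists. FZD2, FZD5 and FZD9 had none in any. FZD4, the receptor for norrin in retinal vessels, and FZD5 had H3K4me3 peaks at the 95.2 and 85.3 percentiles of the siControl replicate 1 list, with no H3K27ac in either siControl library at FZD4 and in 1 at FZD5. FZD10 had neither H3K4me3 nor H3K27ac, and H3K27me3 of 0, 1375, 1045, 1428, 0 and 713 bp in the 6 lists.

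The antagonists divided within each family. SFRP5 and SFRP4 were bivalent throughout, with mean H3K27me3 of 6328.3 and 5129.8 bp. SFRP1 had H3K4me3 of 830 to 2207 bp and no H3K27ac. Among the Dickkopf genes DKK1 was active, DKK3, a divergent member, carried H3K4me3 of 1417 to 2240 bp with no H3K27me3, DKK2 carried H3K27me3 in all 6 lists, and DKK4 had no peak of any mark in any of the 18 lists. AXIN2 was bivalent in siControl, with H3K4me3 of 2062 and 2396 bp and H3K27me3 of 1274 and 2195 bp, and had H3K27ac of 0 and 282 bp.

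**Figure D4:**
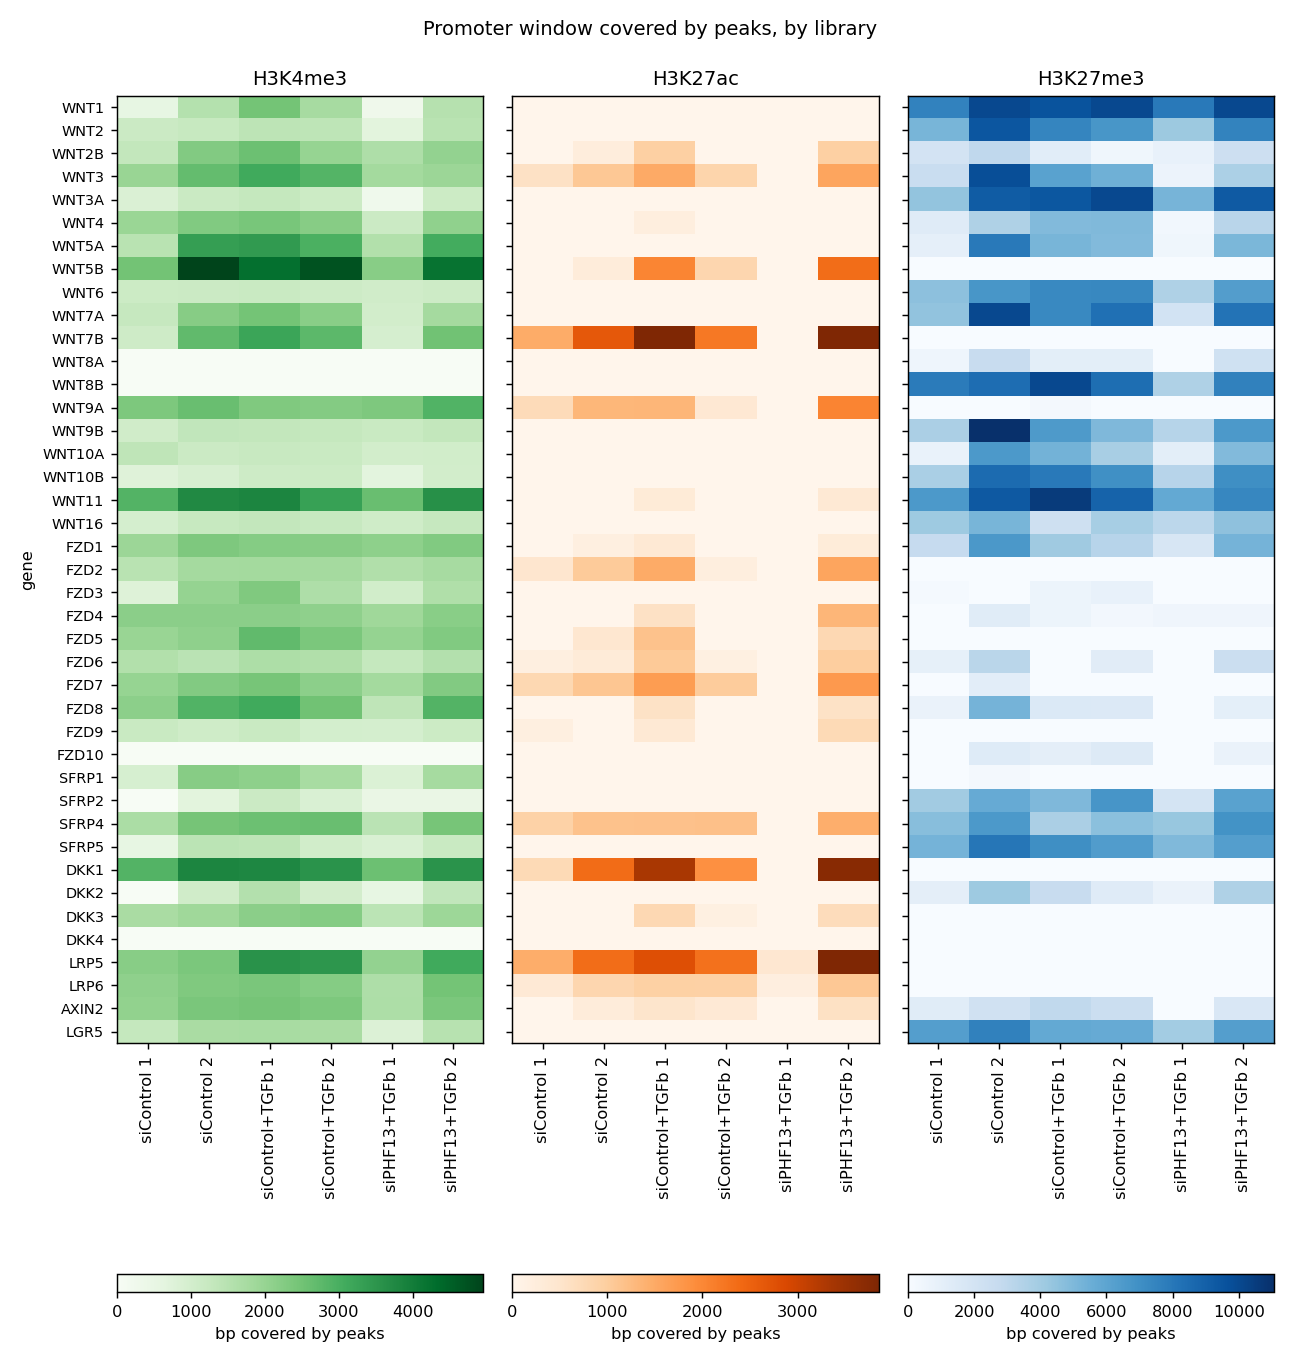
Base pairs of each gene's promoter window under peaks of H3K4me3, H3K27ac and H3K27me3 (colour, a separate scale for each mark), with the 41 genes in rows and the 6 libraries of the mark in columns. H3K27me3 is dense over the ligands and in single rows of the antagonists, while most of the H3K27ac lies at WNT7B, DKK1, LRP5 and a few others and is nearly empty in siPHF13+TGFb replicate 1.

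The Polycomb-only promoters in siControl were WNT8A, WNT8B, SFRP2 and DKK2, and they formed 2 kinds. WNT8B, a ligand of the developing forebrain, had 7865 and 8461 bp of H3K27me3 in siControl and 3585 to 10001 bp in the other 4 lists. WNT8A had 495 and 2600 bp, 1110 and 1116 bp, and 0 and 2227 bp. Neither had H3K4me3 in any list. SFRP2 and DKK2 had none in siControl replicate 1 but 660 and 1053 bp in replicate 2, so that a single library kept them out of the bivalent state.

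The sequence around the TSS set the first pair apart. Over 500 bp on each side of the canonical TSS, the ratio of observed to expected CpGs was 0.125 at WNT8A and 0.126 at WNT8B, with 9 and 6 CpGs, against 0.759 at SFRP2 and 0.656 at DKK2. The bivalent members had a median of 0.818 (0.481 to 0.926) and 97 CpGs, and the active members 0.843 (0.674 to 0.973) and 109. Over all genes the median ratio was 0.759 for bivalent, 0.797 for active and 0.262 for Polycomb-only promoters. WNT5B, with 0.412, was the lowest of the promoters with H3K4me3, and it had the longest mean H3K4me3 of all members, 3799.5 bp, but most of this lay at other starts: the window with its canonical TSS had H3K4me3 of 0, 1069, 660, 311, 0 and 508 bp in the 6 lists. FZD10, at 0.902, had a CpG ratio within the range of the bivalent genes and no H3K4me3. Across these genes the CpG ratio and the length of H3K27me3 are shown as a description, with no test.

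**Figure D5:**
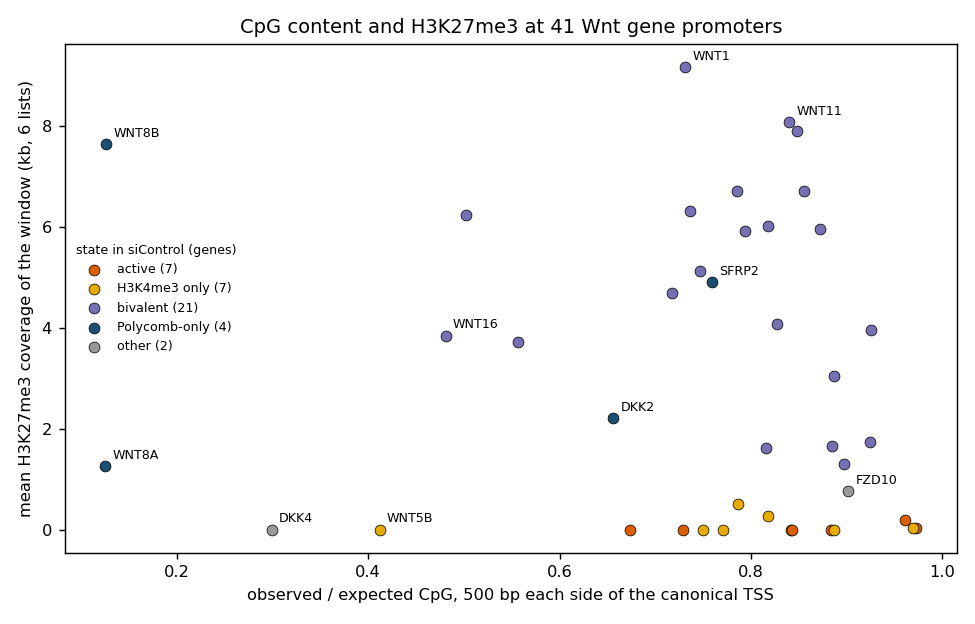
Ratio of observed to expected CpGs within 500 bp of the canonical TSS (x axis) against the mean H3K27me3 coverage of the window in kb over 6 lists (y axis), 1 point per gene, coloured by its state in siControl. WNT8A and WNT8B sit alone at ratios of 0.125 and 0.126, while the other promoters with H3K27me3 in both siControl lists have ratios of 0.481 to 0.926.

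Short motifs were looked for on both strands of the 250 bp upstream of each canonical TSS. The TCF/LEF core written CTTTGAT was found at 1 of 41 members, DKK4, and in 1.72% of all promoters. The form CTTTGAA, which shares its first 6 letters, was found at DKK1 and DKK4, and in 2.96% of all promoters. The AP-1 motif TGANTCA was found at 0 members and in 4.71% of promoters, and the SMAD palindrome GTCTAGAC at 0 members and in 0.159%. TATAAA was found at 5 members, WNT5B, FZD8, DKK1, DKK2 and DKK4, which is 12.2%, against 9.22% of all promoters.

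To examine TGFβ treatment, siControl+TGFb was compared with siControl. By the state rule 8 of the 41 promoters differed in state between the 2 conditions (19.5%, against 14.7% of all genes). WNT5B, a ligand of the β-catenin-independent branch, and DKK3 went from H3K4me3 only to active. SFRP2 and DKK2 went from Polycomb-only to bivalent, FZD6 from bivalent to active, FZD3 and FZD4 from H3K4me3 only to bivalent, and FZD10 from none of these states to Polycomb-only. In siControl+TGFb the 2 marks shared 128 and 0 bp at FZD3 and 0 bp in both libraries at FZD4. Except at DKK3, the mark counted as absent was present in 1 of the 2 libraries, so each difference rested on 1 library. In siControl, H3K27ac at WNT5B was 0 and 281 bp, and H3K4me3 was 0 and 660 bp at SFRP2 and 0 and 1053 bp at DKK2. H3K27me3 at FZD3 was 171 and 0 bp in siControl and 599 and 811 bp with TGFβ. FZD4 already had 1281 bp in siControl replicate 2, against 564 and 279 bp, and FZD6 still had 1224 bp in siControl+TGFb replicate 2. FZD10 likewise had 1375 bp in siControl replicate 2, against 1045 and 1428 bp with TGFβ.

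No covered length passed the test. With limma on log2(bp + 100), which understates changes at low values, 0 of 15192 genes had an adjusted p under 0.05 for H3K4me3 (0%), 0 of 12296 for H3K27ac (0%) and 0 of 8171 for H3K27me3 (0%). At an unadjusted p under 0.05, limma had 511 genes higher and 3 lower for H3K4me3, 11 and 0 for H3K27ac, and 15 and 90 for H3K27me3. Among the members, LRP5 and FZD5 had such a p, both higher for H3K4me3, with an adjusted p of 0.867 in limma. Of the other Wnt pathway genes, 0 of the 64 tested for H3K4me3, 0 of 40 for H3K27ac and 0 of 37 for H3K27me3 were called.

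For H3K4me3, 37 members were tested, as a peak was required in at least 2 of the 6 libraries. Both siControl+TGFb libraries lay above both siControl libraries at 14 of the 37, or 37.8%, against 47.3% of all genes, and both lay below at WNT9A alone, against 2.09%. LRP5 had 2205 and 2370 bp in siControl and 3579 and 3485 bp with TGFβ, a log2 change of 0.61 ± 0.19 (SE). The 2 groups of LRP5 were each narrow and did not overlap. SFRP2, which had 0 and 660 bp in siControl, had 1156 and 854 bp with TGFβ. WNT1 had 537 and 1538 bp against 2472 and 1755 bp, WNT7B 1097 and 2702 bp against 3206 and 2751 bp, and WNT3 1972 and 2656 bp against 3114 and 2846 bp. In the last 3 genes siControl replicate 1 was the low library, and replicate 2 came close to the treated ones. Over the 37 members the median log2 change was 0.22, and over all genes 0.12. With each library centred on its median these became 0.11 and 0.01, and without siControl replicate 1 they were 0.01 and 0.07.

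For H3K27ac, 20 members were tested, and both treated libraries were above both controls at 5, WNT5B, SFRP4, DKK3, LRP6 and AXIN2, which is 25.0% against 55.5% of all genes. The SFRP4 peaks were those near the TSS of EPDR1, and the closest values of the groups there were 1157 bp in siControl and 1162 bp with TGFβ. None was below in both, against 0.0569% of all genes. At WNT5B, H3K27ac covered 0 and 281 bp without TGFβ and 2022 and 820 bp with it, in 2 windows: at the start from 1634057 to 1644985 on chromosome 12 it had 0 and 281 bp against 1190 and 305 bp, and at that from 1678823 to 1688823, 0 and 0 bp against 832 and 515 bp. Its log2 change was 2.84 ± 2.14 (SE), and limma gave an adjusted p of 0.987. DKK3 had no H3K27ac in siControl and 776 and 162 bp with TGFβ. The median log2 change was 0.62 over the members and 0.59 over all genes, and centring took these to 0.03 and 0.00. Without siControl+TGFb replicate 1, which had the longest H3K27ac list, the median over the members was 0.05, against 0.30 over all genes. It was 1.53, against 0.88, without siControl+TGFb replicate 2, 1.08, against 0.85, without siControl replicate 2, and 0.15, against 0.30, without siControl replicate 1.

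For H3K27me3, 28 members were tested. WNT3A, WNT4, WNT6, FZD3 and AXIN2 were higher in both treated libraries (5 of 28, 17.9%, against 6.45% of all genes), and WNT2B, WNT16, SFRP4 and LGR5 lower in both (4 of 28, 14.3%, against 7.26%). WNT3A had 4414 and 9188 bp in siControl and 9384 and 10001 bp with TGFβ. WNT4, a ligand of kidney and ovary development, had 1306 and 3563 bp against 4925 and 4962 bp, WNT6 4600 and 6675 bp against 7266 and 7321 bp, and AXIN2 1274 and 2195 bp against 2896 and 2462 bp. In the other direction, WNT2B had 2002 and 2951 bp against 1188 and 424 bp, WNT16, a ligand of bone, 4109 and 5172 bp against 2307 and 3844 bp, SFRP4 4725 and 6542 bp against 3712 and 4659 bp, and LGR5 6268 and 7586 bp against 5786 and 5684 bp. The siControl libraries themselves stood far apart, with 87336 and 174420 bp summed over the 41 windows, around 137119 and 131719 bp in siControl+TGFb. The whole siControl lists covered 105 and 293 Mb of the genome. The median log2 change was 0.18 over the members, against 0.09 over all genes. Over the members it was -0.41 without siControl replicate 1 and 0.71 without replicate 2, so its direction rested on which control was used. SFRP4 and LGR5 were at 0.00 and 0.01 on the log2 scale with windows of 2.5 kb on each side.

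To examine PHF13 depletion under TGFβ, siPHF13+TGFb was compared with siControl+TGFb. These comparisons share the siControl+TGFb libraries with those above. By the state rule 13 of the 41 promoters differed in state, 31.7%, against 42.6% of all genes. Active promoters numbered 10 with control siRNA and 2 with siPHF13, LRP5 and LRP6, while H3K4me3 only went from 3 to 14. Over all genes the active share was 48.4% and 19.7%, and that of H3K4me3 only 4.73% and 38.0%. The 8 that left the active state were WNT5B, WNT7B, WNT9A, FZD2, FZD6, FZD7, DKK1 and DKK3, and every one had 0 bp of H3K27ac in siPHF13+TGFb replicate 1. Counted in replicate 2 alone, an alternative chosen after seeing the data, 11 promoters were active (49.3% of all genes), 24 bivalent, 3 Polycomb-only and 2 H3K4me3 only. Bivalent promoters numbered 21 by both libraries, against 24 in siControl+TGFb. FZD3, FZD8 and AXIN2 were those that left.

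Limma called 0 of 15192 genes for H3K4me3 (0%), 0 of 12296 for H3K27ac (0%) and 0 of 8171 for H3K27me3 (0%). At an unadjusted p under 0.05 it had 2 genes higher and 1575 lower, 0 and 150, and 3 and 67. Of the members, WNT3 and DKK3 had an unadjusted p under 0.05 for H3K4me3, with a limma adjusted p of 0.389, and FZD3 for H3K27me3, with 0.808, all lower. None of the other Wnt pathway genes tested was called. siPHF13+TGFb replicate 1 had the shortest H3K4me3 of the 6 lists at 25 of 37 members (73.4% of all genes), the shortest H3K27ac at 10 of 20 (79.1%; counting ties, all 20 and 99.2%) and the shortest H3K27me3 at 18 of 28 (59.1%).

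For H3K4me3, 19 of 37 members were lower in both siPHF13+TGFb libraries than in both siControl+TGFb libraries, 51.4%, against 61.7% of all genes. By replicate 2 alone 19 were lower, against 63.0% of all genes, and 6 higher, against 10.4%. WNT9A alone was higher in both libraries, against 0.296% of all genes, with 2307 and 2251 bp in siControl+TGFb and 2329 and 2902 bp in siPHF13+TGFb. WNT3 had 3114 and 2846 bp against 1816 and 1920 bp, a log2 change of -0.65 ± 0.15 (SE), and of -0.61 without replicate 1. It was the one of the 5 widest differences in which the 2 siPHF13+TGFb libraries were close. They differed by window: at the alternative start WNT3 had 2039 and 1987 bp against 1816 and 1920 bp, and at the canonical start 1075 and 859 bp against 0 and 0 bp. WNT5B had 4238 and 4724 bp against 2200 and 4197 bp, WNT7B 3206 and 2751 bp against 947 and 2513 bp, WNT1 2472 and 1755 bp against 288 and 1524 bp, and LRP5 3579 and 3485 bp against 2048 and 3106 bp. In these 4 genes replicate 2 lay nearer to the siControl+TGFb libraries than to replicate 1. Without replicate 1 the log2 change was -0.09 at WNT5B, -0.23 at WNT7B, -0.43 at WNT1 and -0.18 at LRP5, where it had been -0.54, -0.89, -1.46 and -0.47. The median log2 change over the members was -0.40, against -0.22 over all genes, and without replicate 1 it was -0.06, against -0.09. With libraries centred the members' median was -0.18, against -0.01.

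For H3K27ac, none of the 20 members was lower in both libraries, against 10.4% of all genes, and none was higher in both, against 0.0163%. By replicate 2 alone 16 of the 20 were higher than both siControl+TGFb libraries, 80.0%, against 29.3% of all genes, and none was lower, against 10.4%. Of the 16, WNT11, FZD4 and FZD8 had a peak in 2 lists only. This library was 1 of the 2, so they met the minimum for testing only through it. Within siPHF13+TGFb, the windows of the 41 genes held 646 bp of H3K27ac in all in replicate 1 and 30504 bp in replicate 2. The latter was the longest of the 6 lists at 16 of the 20 members, 29.0% of all genes. FZD4 had 0, 0, 579, 0, 0 and 1334 bp and FZD9 170, 0, 377, 0, 0 and 744 bp in the order of the groups, both with their highest value in that library. The median log2 change over the members was -0.80, against -1.40 over all genes. Without siPHF13+TGFb replicate 1 it was 0.81, against 0.15, with all 20 members above 0, without siControl+TGFb replicate 1 it was -0.01, against -1.09, and with libraries centred it was 1.05, against 0.44. The direction of H3K27ac upon depletion thus differed between the 2 libraries and the scalings.

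For H3K27me3, 11 of 28 members were lower in both siPHF13+TGFb libraries, 39.3%, against 29.4% of all genes, and none was higher in both, against 1.20%. By replicate 2 alone 11 were lower, against 30.0% of all genes, and 10 higher, against 30.2%. WNT3 had 6098 and 5433 bp in siControl+TGFb and 624 and 3635 bp in siPHF13+TGFb. WNT8B had 10001 and 8403 bp against 3585 and 7582 bp, WNT4 4925 and 4962 bp against 303 and 3212 bp, WNT11 10552 and 8902 bp against 5784 and 7387 bp, and WNT3A 9384 and 10001 bp against 5192 and 9284 bp. At WNT3A replicate 2 came close to the lower siControl+TGFb library. The log2 changes ran from -2.13 ± 1.29 at WNT4 to -0.47 ± 0.65 at WNT3A (SE), and without replicate 1 they were -0.61 at WNT4 and -0.06 at WNT3A. The median over the members was -0.59, against -0.92 over all genes. Without replicate 1 it was 0.05, against 0.00, and with libraries centred 0.64, against 0.31, when WNT8B, WNT11 and WNT3A turned to 0.42, 0.66 and 0.75.

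The marks are set side by side for WNT3, SFRP2 and AXIN2. WNT3 had no H3K4me3 peak at its canonical start in both siPHF13+TGFb libraries and had its 2 shortest H3K27me3 lengths of the TGFβ-treated cells there, 624 and 3635 bp, while its alternative starts had H3K4me3 in all 6 lists. SFRP2 had H3K4me3 of 0 and 660 bp, 1156 and 854 bp, and 460 and 452 bp, over H3K27me3 of 1940 to 6722 bp, and never H3K27ac. AXIN2 had H3K27ac of 0, 282, 502, 372, 0 and 600 bp and H3K27me3 of 1274, 2195, 2896, 2462, 0 and 1658 bp, so that both marks were longer in the 2 siControl+TGFb libraries than in siControl. None of these differences passed limma, and with 2 libraries against 2 an exact permutation test of a single value cannot go below p = 0.333.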

How the data were processed

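The 18 deposited peak lists were made by the authors, who per the study's methods and processing notes trimmed reads with Trim Galore 0.4.1, aligned them to hg19 with Bowtie2 2.4.1, removed duplicates with Picard and called peaks in each library with MACS2 2.2.7.1, broad for H3K27me3. Each deposited peak carries a score, a fold enrichment ratio and a −log10 p-value and q-value of the authors' peak caller, used here only to rank, filter or describe peaks. The lowest −log10 q deposited was 1.30 for H3K4me3 and H3K27ac and 1.00 for H3K27me3, the former below the stricter limit the methods give. The 6 inputs were not analysed here.

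Windows came from GENCODE release 44 on GRCh37. Covered length was compared by fitting log2(bp + 100) of the 3 groups together (R 4.3.3, limma 3.58.1, eBayes with trend, genes with a peak in at least 2 libraries, Benjamini-Hochberg over all genes), a script tested on simulated data. Intervals were handled in Python 3.11.15 with NumPy 2.4.6 and checked against bedtools 2.31.1. p-values measure only the spread between these libraries. Members named had non-overlapping groups and a mean difference of at least 500 bp, up to 5 in each direction per mark and comparison. Members, lists and tests were chosen with earlier results of these data known. The alternatives were other windows, peak filters, pseudocounts and scalings, each library left out, and a replicate block. Of the promoters chosen for printing, that of WNT7B is not reported here.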

Additional observations from a re-analysis of the deposited data

How the results depend on the processing

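The 21 bivalent, 7 active and 4 Polycomb-only promoters of siControl depended on the strength of peaks that counted. With the 50% strongest peaks of each list they were 10, 4 and 12. With a −log10 q of at least 3, 2 were bivalent and 0 Polycomb-only, since few H3K27me3 peaks reach that value (2037 and 3942 in siControl). With lists of equal length 2 were active. Windows of 2.5 kb, canonical TSSs, a minimum of 500 bp and presence in either library gave 20 to 27 bivalent. Leaving out 1 siControl library gave 22 to 26 bivalent, 8 active and 3 to 4 Polycomb-only.

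With siPHF13+TGFb, the counts without 1 of its libraries (chosen after seeing the data) were 2 to 11 active, 21 to 24 bivalent and 1 to 3 Polycomb-only. No member was called by limma in any comparison under the alternatives tried, except without siPHF13+TGFb replicate 2, which left replicate 1 to stand for the group: 5 of 37 members lower for H3K4me3 (1590 of 15192 genes), 10 of 20 for H3K27ac (9723 of 12296 genes) and 0 for H3K27me3 (range 0 to 5, 0 to 10 and 0 over the libraries left out). With the replicate block, 0 members were called in all 6 comparisons. Deviations of same-numbered libraries correlated at -0.417 to 0.513, and a crossed replicate block for H3K4me3 and H3K27ac, added after seeing the data, also called 0 members. With the 50% strongest peaks, the H3K4me3 log2 changes of WNT7B with TGFβ and of WNT5B upon depletion turned to -0.14 and 2.18. The depth of the libraries is unknown, and 2 libraries a group limit every comparison.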
